A study of Mus musculus with 12 samples.

Results

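Tnfsf11, Tnfrsf11a and Tnfrsf11b are the mouse genes for RANKL, for its receptor RANK and for the soluble decoy receptor osteoprotegerin. They were taken by symbol from the 52636 Ensembl gene identifiers of the count table, which gave 3 genes, 1 identifier for each symbol. All 3 were measured in paw joints of 12 mice, 1 library per animal, in 3 groups of 4. The Naive + aGP120 mice had no disease and received anti-gp120, a control antibody. The KBxN + aGP120 mice received K/BxN serum, which carries arthritogenic antibodies, and the same control antibody, and the KBxN + 6F2 mice received the serum and 6F2, an agonistic antibody against SIRPa, an inhibitory receptor of myeloid cells. Paw tissue of the arthritic mice was taken 7 days after the serum. All groups received an antibody, and by the labels the 2 arthritic groups differ in which antibody was given. The sources used here do not give strain, sex, age or doses. Serum transfer supplies antibodies directly, so the model shows the effector phase of arthritis without the autoimmune response that makes them.

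RANKL is a membrane-bound or shed cytokine of the TNF family that stromal cells, osteocytes and activated lymphocytes can make. It binds RANK on myeloid precursors and, together with M-CSF, turns them into osteoclasts, the cells that resorb bone. Osteoprotegerin has no transmembrane part and captures RANKL before it reaches RANK, so bone erosion in inflamed joints is commonly described by the balance of RANKL and osteoprotegerin.

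In arthritic joints of mice given the control antibody, Tnfsf11 RNA rose, while Tnfrsf11a had a higher and Tnfrsf11b a lower mean without passing the threshold. In arthritic joints of mice given 6F2, Tnfsf11 was lower, a call kept in 3 of 12 fits with 1 mouse left out. Its fitted level was 2.21-fold that of naive mice, with a wide interval (log2 -0.73 to 3.01). The values of both receptors stood close to those of naive mice. The sizes were unequal: the fitted Tnfsf11 difference between arthritic and naive joints was 27.5-fold, against 1.74-fold for Tnfrsf11a and 0.703-fold for Tnfrsf11b.

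On GRCm38, with GENCODE M21 gene models, Tnfsf11 (ENSMUSG00000022015) lies on the minus strand at chr14:78277445-78308043 and has 1 annotated transcript with 2236 exon bases. Tnfrsf11a (ENSMUSG00000026321) lies on the plus strand at chr1:105780718-105847981, with 3 transcripts and 5985 exon bases in their union. Tnfrsf11b (ENSMUSG00000063727) lies on the minus strand at chr15:54250619-54278484, with 1 transcript and 2818 exon bases. All 3 are protein-coding, and 0 other annotated genes overlap any of them on either strand, so that the unknown strand setting of the counting bears little on their counts.

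RefSeq promoter sequences on GRCm38.p6 were matched for 2 of the 3 genes. The 250 bases before the RefSeq start of Tnfsf11 and of Tnfrsf11a are shown because the results below turn on these genes, and their start regions differ in composition. In Tnfsf11, capitals mark TTATAA, which reads the same on both strands, and a TATAAA that overlaps it, read on the strand not printed. In Tnfrsf11a they mark GGGCGG, the GC box. The windows are chr14:78308044-78308293 on the minus strand and chr1:105780473-105780722 on the plus strand, written 5′ to 3′.
Tnfsf11: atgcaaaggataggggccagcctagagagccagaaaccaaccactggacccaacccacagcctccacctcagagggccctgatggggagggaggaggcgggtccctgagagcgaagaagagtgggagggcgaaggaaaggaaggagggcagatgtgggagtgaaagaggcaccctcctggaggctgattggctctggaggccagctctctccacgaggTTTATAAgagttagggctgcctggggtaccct
Tnfrsf11a: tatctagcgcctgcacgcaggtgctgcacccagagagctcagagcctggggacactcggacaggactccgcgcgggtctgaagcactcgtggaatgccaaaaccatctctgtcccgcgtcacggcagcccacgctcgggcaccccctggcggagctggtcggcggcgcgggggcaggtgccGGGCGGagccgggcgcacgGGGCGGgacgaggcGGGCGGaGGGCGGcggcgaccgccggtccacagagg

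The Tnfsf11 window held 1 TTATAA starting 31 bases before the start, 1 TATAAA on the strand not printed, 4 CpG and 60.4% G and C. Of 32851 mouse promoters read the same way on both strands, 5.23% held TTATAA and 12.4% held TATAAA. The Tnfrsf11a window held 4 GC boxes, at 69, 50, 36 and 29 bases before the start, with 31 CpG and 73.6% G and C, against a median of 6 CpG and 52.4% over all promoters. GGGCGG was present in 32.7% of promoters. In the Tnfsf11 window the letters GGGCGG did not occur, and in the Tnfrsf11a window neither TATAAA nor TTATAA did. These matches describe letters only.

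Total counts ran from 6893969 in KBxN + aGP120 mouse 2 to 17597920, and the floor of 3 counts used here was worth 0.17 to 0.394 CPM. Levels are given as CPM, counts relative to the library total, scaled by TMM, which corrects each library for its overall composition. On the expression of other genes, KBxN + aGP120 mouse 1 lay near the naive libraries, and KBxN + aGP120 mice 2 and 4 carried far more counts in genes of smell and taste receptors than the other libraries (497 and 211 CPM over 1469 genes, against 9.85 to 28.3 CPM). Naive + aGP120 mouse 4 and KBxN + 6F2 mouse 2 held little skin, with 37.7 and 40.9 CPM of keratinocyte markers. KBxN + 6F2 mouse 4 and Naive + aGP120 mouse 1 had the most, 14960 and 11390 CPM. KBxN + 6F2 mouse 4 also had 112500 CPM of skeletal muscle markers, against 195600 to 225000 CPM in the rest of its group. The results below are given with and without these libraries where they matter.

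Tnfsf11, the ligand, was scarce in naive joints. The 4 naive libraries held 3, 4, 2 and 10 counts, or 0.183, 0.281, 0.141 and 0.767 CPM. KBxN + aGP120 mice 1 to 4 held 10, 109, 226 and 79 counts, or 0.827, 14.3, 17.1 and 5.70 CPM. KBxN + 6F2 mice 1 to 4 held 10, 6, 14 and 18 counts, or 0.588, 0.386, 1.01 and 1.02 CPM. Mice 2, 3 and 4 of the arthritic control group therefore stood far above all other libraries, and mouse 1 stood within the range of the 6F2 group. The naive and arthritic control groups did not overlap, but only just: the lowest arthritic control mouse (0.827 CPM, exact 95% Poisson interval 0.397 to 1.52) and the highest naive mouse (0.767 CPM, 0.368 to 1.41) had overlapping counting intervals. These intervals and the floor cover counting error only.

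**Figure D1:**
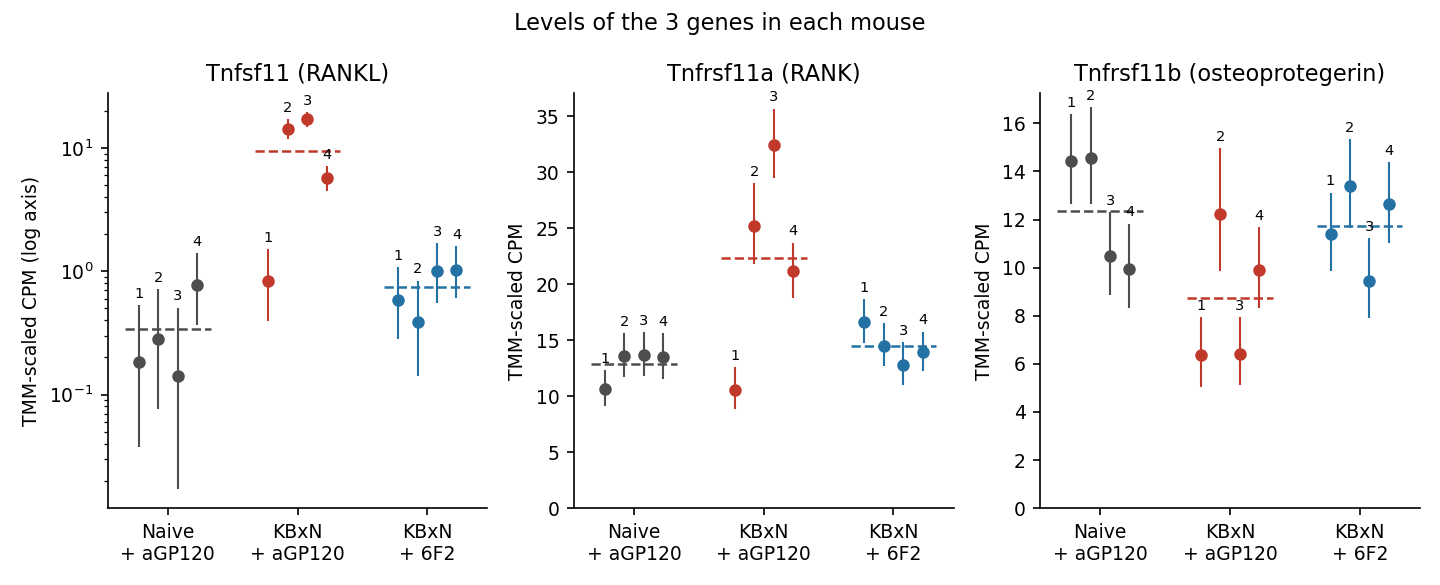
TMM-scaled CPM of Tnfsf11 (log axis), Tnfrsf11a and Tnfrsf11b (linear axes from 0) in each of the 12 mice, numbered within their group; bars are exact 95% Poisson intervals of the counts and dashed lines are group means. KBxN + aGP120 mice 2, 3 and 4 sit at 5.70 to 17.1 CPM for Tnfsf11 and 21.2 to 32.5 CPM for Tnfrsf11a, above every other mouse, while mouse 1 of that group does not.

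In bulk tissue fewer cells of a type and less RNA per cell cannot be told apart, which holds for every level given here. The group means of Tnfsf11 were 0.343 ± 0.289 CPM in naive, 9.48 ± 7.53 CPM in arthritic control and 0.751 ± 0.316 CPM in 6F2-treated joints (SD, n = 4 each). Against naive joints, Tnfsf11 rose in arthritic control joints by 4.78 ± 0.85 on the log2 scale (SE, 95% interval 2.94 to 6.63, edgeR quasi-likelihood test, Benjamini-Hochberg adjusted p = 0.0103). This was the 13th highest fold change among 16674 tested genes. Tnfsf11 was abundant enough to be tested only with the arthritic control mice, where it was high. The rank and the lack of overlap are therefore descriptions, and the fold change rests on few naive counts. As pooled counts, 424 against 19 at these depths, the ratio was 27.6 (95% counting interval 17.5 to 46.4), which leaves the spread between mice out. Of the 3 genes only Tnfsf11 passed the threshold in this comparison, where 10.3% of all tested genes did (5.87% higher, 4.45% lower), and only Tnfsf11 had groups that did not overlap, as 12.5% of all genes had. The call held when any 1 of the 12 mice was left out (log2 fold change 4.31 to 5.48). It was lost without KBxN + aGP120 mice 2 and 4 together, where the difference was 4.67 (edgeR adjusted p = 0.104), and with limma-voom, where it was 4.21 (limma-voom adjusted p = 0.125).

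The next question was whether the SIRPa agonist changed the ligand in arthritic joints. Tnfsf11 fell by 3.64 ± 0.77 on the log2 scale in 6F2-treated against control-antibody arthritic joints (95% interval -5.32 to -1.96, edgeR adjusted p = 0.0347), and 3 of the 4 control mice stood above all 4 treated mice. The pooled counts were 48 against 424, and the depth-scaled ratio was 0.0827 (95% counting interval 0.0600 to 0.112), which leaves the spread between mice out. Of the 3 genes this was the only call in a comparison where 3.29% of tested genes were called (1.59% higher, 1.7% lower). For 0 of the 3 genes were the groups apart, against 10% of all genes, since control mouse 1 lay among the treated mice. The call rested on a narrow margin. When 1 mouse at a time was left out, the fold change stayed between -4.02 and -3.17, but the adjusted p ran from 0.000167 to 0.112 and passed the threshold in 3 of 12 fits. It was kept without Naive + aGP120 4 (edgeR adjusted p = 0.0372), KBxN + aGP120 1 (edgeR adjusted p = 0.000167) or KBxN + 6F2 4 (edgeR adjusted p = 0.049), and lost without any other mouse (edgeR adjusted p = 0.0511 to 0.112).

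Treated arthritic joints were not told apart from naive ones for Tnfsf11. The difference was 1.14 ± 0.86 on the log2 scale, with a wide 95% interval from -0.73 to 3.01 (edgeR adjusted p = 1). The pooled counts, 48 against 19, gave a depth-scaled ratio of 2.29 (95% counting interval 1.32 to 4.12), which leaves the spread between mice out. In this comparison edgeR called 0% of the 16674 genes (675 at an unadjusted p under 0.05), DESeq2 called 20 and limma-voom 0. The groups of 0 of the 3 genes were apart, against 4.89% of all genes. All 3 comparisons reuse the same groups of 4, so that the arthritic control mice enter both the increase and the decrease of Tnfsf11.

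**Figure D2:**
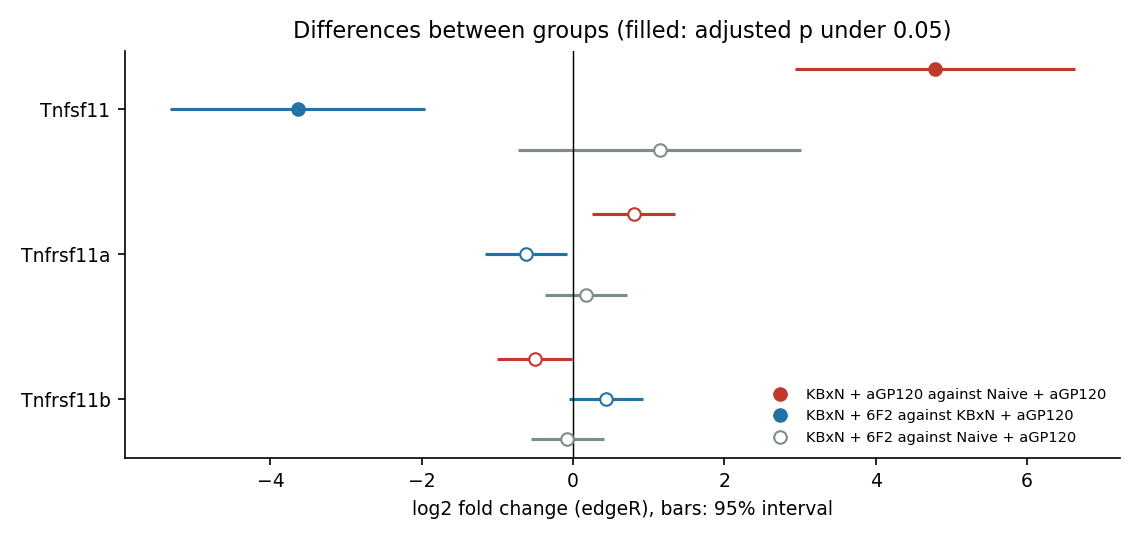
Log2 fold changes of the 3 genes in the 3 comparisons, fitted by edgeR to all 12 libraries, with 95% intervals; filled points have an adjusted p under 0.05. Only the Tnfsf11 points at 4.78 and -3.64 are filled, and the intervals of treated against naive joints span 0 for each gene.

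The smell and taste receptor genes, which joints are not known to express, were used as a level to set Tnfsf11 against. Per kilobase of exon, Tnfsf11 stood 31.4 to 1434 times above the mean level of those genes in the same library, and 68.4, 1434 and 64.3 times above it in KBxN + aGP120 mice 2, 3 and 4. A gene of the length of Tnfsf11 at that level would have held at most 1.59 counts in any library. In KBxN + aGP120 mice 2 and 4 Tnfrsf11a stood 45.0 and 89.0 times above that level, against 758 to 1307 times in the other libraries. Tnfrsf11b stood 46.3 and 88.4 times above it there, against 428 to 2414 times in the others. The mean over those genes need not hold at another gene, so it sets no bound on the Tnfsf11 counts that could share their source. Whether the source of the receptor gene counts has a part in the Tnfsf11 result was not tested.

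Tnfrsf11a, the receptor on osteoclast precursors and dendritic cells, was easily detected in every library, with 128 to 430 counts. Naive mice 1 to 4 stood at 10.7, 13.6, 13.6 and 13.5 CPM. KBxN + aGP120 mice 1 to 4 stood at 10.6, 25.2, 32.5 and 21.2 CPM, and KBxN + 6F2 mice 1 to 4 at 16.6, 14.5, 12.8 and 13.9 CPM. Again mice 2, 3 and 4 of the arthritic control group were above all other mice, and mouse 1 of that group was the lowest of all 12.

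The group means of Tnfrsf11a were 12.8 ± 1.46, 22.4 ± 9.14 and 14.5 ± 1.62 CPM (SD, n = 4 each) in naive, arthritic control and treated joints. The arthritic control joints differed from naive ones by 0.80 ± 0.25 (log2, SE, 95% interval 0.26 to 1.35), which missed the threshold (edgeR adjusted p = 0.0594). Treated joints differed from arthritic control joints by -0.63 ± 0.25 (95% interval -1.17 to -0.09, edgeR adjusted p = 0.15) and from naive joints by 0.17 ± 0.25 (-0.37 to 0.72, edgeR adjusted p = 1). Both former differences passed once KBxN + aGP120 mouse 1 was left out, at 1.02 (edgeR adjusted p = 0.000472) and -0.85 (edgeR adjusted p = 0.00238), and the first also with DESeq2 (0.77, DESeq2 adjusted p = 0.0283). Without KBxN + aGP120 mouse 3, the highest, they were 0.56 and -0.38.

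**Figure D3:**
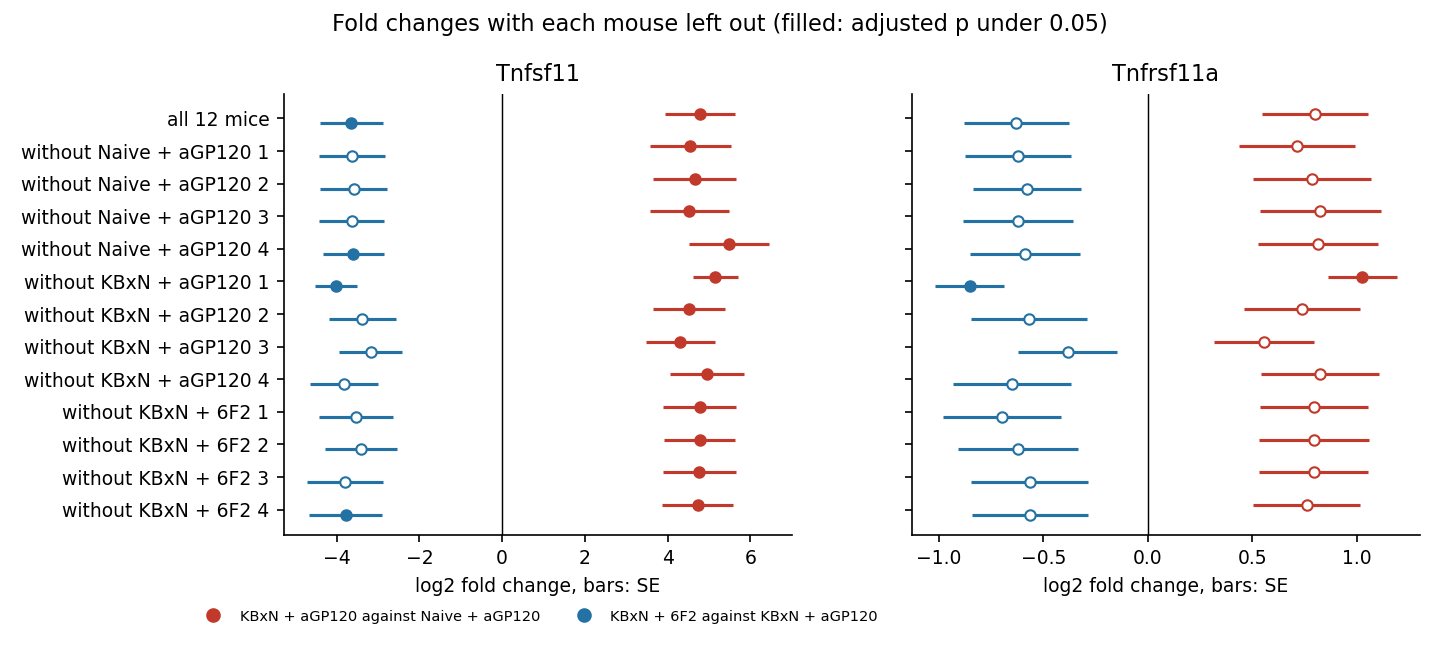
Log2 fold changes of Tnfsf11 and Tnfrsf11a with all 12 mice and with each mouse left out in turn; bars are SE, filled points have an edgeR adjusted p under 0.05. For Tnfsf11 the increase is filled in every row and the decrease in the row of all mice and 3 of the 12 others, whereas for Tnfrsf11a points are filled only where KBxN + aGP120 mouse 1 is left out.

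Tnfrsf11b, the decoy, had its lowest mean in arthritic control joints. Naive mice 1 to 4 stood at 14.4, 14.5, 10.5 and 9.96 CPM. KBxN + aGP120 mice stood at 6.37, 12.2, 6.42 and 9.89 CPM, and KBxN + 6F2 mice at 11.4, 13.4, 9.46 and 12.6 CPM. The lowest 2 of the 12 were arthritic control mice 1 and 3, and the other 2 control mice lay in or just under the range of naive and treated mice, so that all groups overlapped. Mouse 1, which had little Tnfsf11, thus had the lowest Tnfrsf11b, and mouse 2, rich in Tnfsf11, had the highest Tnfrsf11b of its group.

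The means of Tnfrsf11b were 12.4 ± 2.47, 8.72 ± 2.85 and 11.7 ± 1.72 CPM (SD, n = 4 each). The difference of arthritic control from naive joints was -0.51 ± 0.23 (log2, SE, 95% interval -0.9995 to -0.01856, edgeR adjusted p = 0.162). Treated joints differed from arthritic control joints by 0.43 ± 0.23 (-0.06 to 0.92, edgeR adjusted p = 0.259) and from naive joints by -0.08 ± 0.22 (-0.56 to 0.41, edgeR adjusted p = 1). None of the alternatives tried brought any of the 3 differences of Tnfrsf11b past the threshold.

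Ligand and decoy were then set against each other in the same mouse, per kilobase of exon, since a longer transcript yields more reads. On this scale Tnfrsf11b was the most abundant of the 3 genes in naive joints (4.38 ± 0.877 CPM per kilobase), followed by Tnfrsf11a (2.14 ± 0.243) and Tnfsf11 (0.153 ± 0.129), and the ranges of the 3 genes did not overlap. In arthritic control joints the order of means was Tnfsf11 (4.24 ± 3.37), Tnfrsf11a (3.74 ± 1.53) and Tnfrsf11b (3.10 ± 1.01), with ranges that overlapped for each pair. In treated joints the naive order was back, with Tnfrsf11b at 4.16 ± 0.609, Tnfrsf11a at 2.42 ± 0.270 and Tnfsf11 at 0.336 ± 0.141 CPM per kilobase.

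For every 100 units of Tnfrsf11b RNA per kilobase, naive mice 1 to 4 held 1.86, 2.73, 2.11 and 10.1 units of Tnfsf11 RNA. KBxN + aGP120 mice 1 to 4 held 17.1, 148, 334 and 72.9 units, so that Tnfsf11 exceeded Tnfrsf11b in mice 2 and 3. KBxN + 6F2 mice 1 to 4 held 6.80, 3.93, 13.9 and 10.4 units. Every arthritic control mouse was above every naive and every treated mouse on this ratio, including mouse 1, whose Tnfsf11 alone was not above the treated mice. Its place above KBxN + 6F2 mouse 3 rests on 10 and 14 Tnfsf11 counts, whose counting intervals overlap (0.397 to 1.52 and 0.553 to 1.70 CPM). As log2 ratios the means were -4.95 ± 1.13 in naive, -0.18 ± 1.82 in arthritic control and -3.66 ± 0.79 in treated joints (SD, n = 4 each). With a prior of 2 counts in place of 0.5 they were -4.52, -0.14 and -3.49. No test was made of these ratios.

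**Figure D4:**
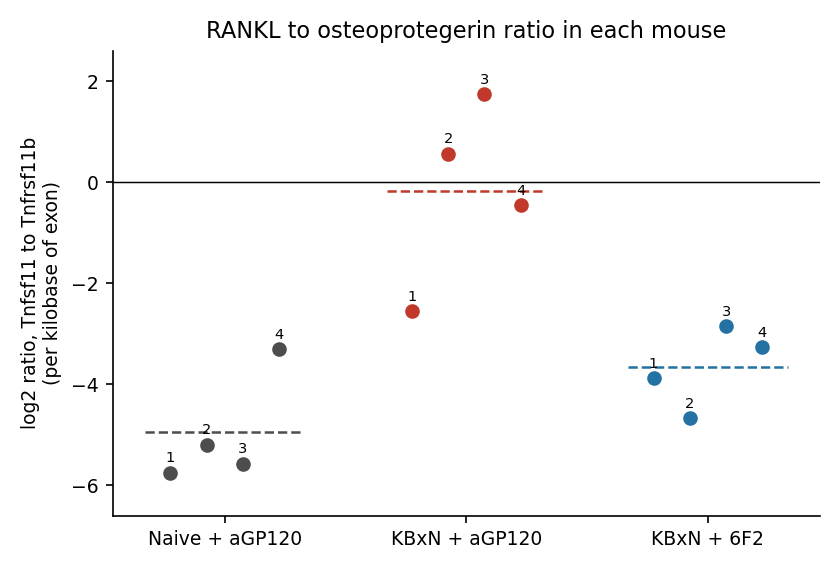
Log2 ratio of Tnfsf11 to Tnfrsf11b per kilobase of exon in each mouse, with a prior of 0.5 counts; dashed lines are group means and the solid line at 0 marks equal amounts. The 4 arthritic control mice lie between -2.55 and 1.74, above the naive (-5.75 to -3.30) and treated mice (-4.67 to -2.85).

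Levels of the 3 genes were also compared across mice. Over the 12 libraries the log2 CPM of Tnfsf11 and Tnfrsf11a had a Pearson r of 0.881, and of 0.834 once the group means were subtracted. The latter leans on KBxN + aGP120 mouse 1, at -0.045 and 3.423, against 2.548 to 4.105 and 4.413 to 5.028 in mice 2, 3 and 4. In treated mice the 2 genes did not run together. KBxN + 6F2 mouse 1 was higher than mouse 3 in Tnfrsf11a (4.068 and 3.692) and lower in Tnfsf11 (-0.454 and 0.205). For Tnfsf11 and Tnfrsf11b r was -0.448 over the 12 libraries and 0.169 within groups, and for Tnfrsf11a and Tnfrsf11b -0.275 and 0.192. These are descriptions over 12 libraries that share group, depth and tissue composition.

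Among 13000 named genes with a mean log2 CPM of at least 0, those whose levels ran most like Tnfsf11 over the 12 libraries included B4galt2 (r = 0.975), a galactosyltransferase, Adam12 (0.966), a metalloprotease of mesenchymal cells, Sf3b5 (0.965), a splicing factor subunit, and Cers6 (0.963), a ceramide synthase. Within groups their r was 0.885 to 0.956, and the low Tnfsf11 of KBxN + aGP120 mouse 1 enters these values as well. For Tnfrsf11a the 5 were Rrbp1 (0.975), a ribosome-binding protein of the endoplasmic reticulum, Specc1 (0.968), Ctc1 (0.968), a telomere maintenance protein, Fermt3 (0.967), the kindlin of blood cells, and Atp10a (0.965), a phospholipid flippase. For Tnfrsf11b the values were lower, with Timp2 (0.902), an inhibitor of metalloproteinases, Slco2b1 (0.888), an organic anion transporter, Lsamp (0.865), Ptprg (0.862), a receptor phosphatase, and Cgnl1 (0.853), a junction protein. With a prior count of 0.5 in place of 2, 4, 5 and 5 of the 5 genes most like each member were kept.

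Around the 3 genes, 102 genes of the RANK pathway and of its control were listed in 7 groups, and 91 were abundant enough to test. In arthritic control against naive joints 16 rose and 5 fell, 17.6% and 5.49% of the tested pathway genes against 5.87% and 4.45% of all genes. In treated against arthritic control joints 1 rose and 9 fell, 1.1% and 9.89% against 1.59% and 1.7% of all genes. In treated against naive joints 0 of the 91 passed by edgeR, 1 by DESeq2 and 0 by limma-voom. The first and second comparisons share the arthritic control mice. Counts of called genes in each pathway and marker list below stand against the same shares of all genes, and in lists this short 1 or 2 calls can be near them. Without KBxN + aGP120 mice 2 and 4 together, 0 of these calls remained in any comparison. Without mouse 1 of that group there were 43 higher and 9 lower in the first comparison and 8 higher and 40 lower in the second, and calls over all genes grew as well, to 2507 higher and 2187 lower, and to 1912 higher and 2064 lower. Of the 21 and 10 pathway calls of the first and second comparison, limma-voom kept 14 and 4, and fits of only the 2 groups compared kept 6 and 0.

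Of the RANK adaptors, kinases and NF-kB genes, 2 of 20 rose and 2 fell in arthritic control joints (median log2 fold change -0.09, against 0.03 for all genes), and 0 rose and 2 fell with 6F2 (median -0.02, against -0.03). The members that moved both ways were the NF-kB subunits of the non-canonical branch. Nfkb2 stood at 20.2, 17.5, 22.6 and 17.4 CPM in naive mice, at 24.1, 60.4, 73.6 and 47.0 in arthritic control mice and at 23.3, 24.4, 22.8 and 19.4 in treated mice. It rose by 1.40 ± 0.26 (log2, SE, edgeR adjusted p = 0.0103) and fell by 1.19 ± 0.26 with 6F2 (edgeR adjusted p = 0.0338). Its partner Relb rose by 1.18 ± 0.23 (edgeR adjusted p = 0.0121) and fell by 1.204 ± 0.234 (edgeR adjusted p = 0.0271). Traf3, an adaptor that restrains this branch, fell by 0.60 ± 0.16 (edgeR adjusted p = 0.0296), as did the kinase Mapk8, by 0.81 ± 0.23 (edgeR adjusted p = 0.0419). Traf6, the main adaptor of RANK, had 22.1 ± 3.07 CPM in arthritic control, 26.8 ± 5.50 in naive and 26.5 ± 5.11 in treated joints, with a difference of -0.28 ± 0.17 in the first comparison (edgeR adjusted p = 0.303). Left-out mice changed several of these calls. The increases of Nfkb2 and Relb held in 12 of 12 fits, the decrease of Traf3 was lost without Naive + aGP120 3 or 4 or KBxN + aGP120 3 or 4 (edgeR adjusted p = 0.0704 to 0.0884), and that of Mapk8 held only without KBxN + aGP120 1 or KBxN + 6F2 4. The decrease of Relb was lost without KBxN + aGP120 2, 3 or 4 or KBxN + 6F2 1, 2 or 3 (edgeR adjusted p = 0.0576 to 0.0955), and that of Nfkb2 held only without Naive + aGP120 4 or KBxN + aGP120 1.

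Transcription factors that drive or restrain osteoclast formation moved unevenly, with 3 of 12 higher and 1 lower in arthritic control joints (median 0.46). Fosl2, an AP-1 subunit, rose by 1.27 ± 0.27 (edgeR adjusted p = 0.0176) and Fos, the AP-1 subunit needed for osteoclasts, by 2.14 ± 0.47 (edgeR adjusted p = 0.0229). Mef2c, which is also abundant in muscle, fell by 0.95 ± 0.28 (edgeR adjusted p = 0.0478). With 6F2, Fosl2 fell by 1.40 ± 0.27 (edgeR adjusted p = 0.0292), the only one of the 12 that passed (median -0.18). Fos, in contrast, stood at 37.0 to 179 CPM in treated mice, against 49.8 to 90.9 in arthritic control and 10.97 to 19.9 in naive mice. Nfatc1, the master factor of osteoclasts, had 132 ± 41.5 CPM in arthritic control, 109 ± 6.94 in naive and 97.2 ± 11.9 in treated joints, and its differences of 0.27 ± 0.19 and -0.44 ± 0.19 did not pass (edgeR adjusted p = 0.363 and 0.174). When mice were left out 1 at a time, the increases of Fosl2 and Fos were kept in 8 and 7 of 12 fits, the decrease of Mef2c in 2, and the decrease of Fosl2 with 6F2 in 6. These calls were lost without KBxN + aGP120 3, among others, where the edgeR adjusted p ran up to 0.140.

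M-CSF, its receptor and the ITAM receptors give the second signal that osteoclast precursors need. Of 12 tested genes 4 rose and 0 fell in arthritic control joints (median 0.55). They were the receptor Trem2 (1.27 ± 0.27, edgeR adjusted p = 0.0152), the signalling chains Tyrobp (1.42 ± 0.33, edgeR adjusted p = 0.0205) and Fcer1g (1.43 ± 0.34, edgeR adjusted p = 0.0224), and the kinase Syk (1.09 ± 0.27, edgeR adjusted p = 0.0257). With 6F2, 0 of the 12 passed by edgeR (median -0.49), 1 did by DESeq2, and the differences of these 4 were between -0.87 and -0.74. Csf1, the gene of M-CSF, had 72.9 ± 4.21, 63.5 ± 11.1 and 72.0 ± 6.56 CPM in naive, arthritic control and treated joints, and Csf1r 133.8 ± 6.80, 178 ± 53.4 and 160 ± 21.9, none of which passed. The increase of Trem2 held in 12 of 12 fits with 1 mouse left out. Those of Tyrobp, Fcer1g and Syk were each lost without Naive + aGP120 1, 2 or 4 or KBxN + aGP120 2, 3 or 4 (edgeR adjusted p = 0.0505 to 0.0838). The ITAM chains and Csf1r are expressed by macrophages as well, whose 10 markers summed to 498, 969, 1013 and 988 CPM in arthritic control mice 1 to 4, against 497 to 526 CPM in naive and 624 to 769 CPM in treated mice. Of these 10 markers 7 rose in arthritic control joints, and their part in the ITAM result was not tested.

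The effector genes of osteoclasts had a median of 1.10 in arthritic control joints and of -1.31 with 6F2. Of 10 tested, 1 passed in each comparison, against 10.3% and 3.29% of all genes. The first count was near the share of all genes. Without KBxN + aGP120 mouse 2 these medians were 0.44 and -0.77. Ctsk, the collagen-degrading cathepsin K, stood at 58.6, 67.9, 89.1 and 40.2 CPM in naive mice. It stood at 57.3, 374, 180 and 131 CPM in arthritic control mice and at 48.5, 57.6, 56.5 and 55.1 CPM in treated mice. Mice 2, 3 and 4 of the arthritic control group were again above all others, and with mouse 1 at the naive level the differences were 1.54 ± 0.46 and -1.77 ± 0.46 (edgeR adjusted p = 0.0591 and 0.0623). Acp5, tartrate-resistant acid phosphatase, followed the same pattern, with 11.99, 85.4, 38.2 and 22.6 CPM in arthritic control mice against 8.20 to 19.0 in naive and 6.82 to 17.7 in treated mice (1.30 ± 0.56 and -1.55 ± 0.56, edgeR adjusted p = 0.155 and 0.129). The calls were Tcirg1, a subunit of the osteoclast proton pump, which rose by 1.21 ± 0.34 (edgeR adjusted p = 0.0457), and Atp6v0d2, another pump subunit, which fell by 2.56 ± 0.58 with 6F2 (edgeR adjusted p = 0.0400). Each was kept only when KBxN + aGP120 mouse 1 was left out and lost without any other mouse (edgeR adjusted p = 0.0527 to 0.130 and 0.0506 to 0.117). The fusion gene Ocstamp, too scarce to be tested, had 0.0827, 6.44, 5.36 and 2.17 CPM in arthritic control mice and at most 0.650 CPM in any other mouse. Of the 10 tested genes 9 had a difference above 0 in arthritic control joints. Car2, carbonic anhydrase 2, went the other way in mice 2, 3 and 4. It stood at 26.6, 11.2, 12.6 and 10.3 CPM in arthritic control mice, against 22.8 to 31.7 in naive and 19.6 to 28.8 in treated mice. Ocstamp and Car2 are given here after their values were seen.

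Cytokines, receptors and enzymes that can induce RANKL in stromal cells had 4 of 13 tested members higher in arthritic control joints and 0 lower (median 0.65), and 3 lower and 0 higher with 6F2 (median -0.46). Il1b, the gene of interleukin 1 beta, had 0, 1, 0 and 0 counts in naive mice, 13, 76, 248 and 85 in arthritic control mice and 0, 14, 3 and 8 in treated mice. All arthritic control mice were above all others by CPM (1.08 to 18.7, against 0 to 0.902), and edgeR called it in both comparisons (adjusted p = 0.00763 and 0.0338). Il1b was abundant enough to be tested only with the arthritic control mice, where it was high, so the lack of overlap is a description. KBxN + aGP120 mouse 1 held 13 counts and KBxN + 6F2 mouse 2 held 14, so their order by CPM rests on the scaling to depth. Il1r1, the receptor of interleukin 1, rose by 1.22 ± 0.26 (edgeR adjusted p = 0.0169) and fell by 1.12 ± 0.26 (edgeR adjusted p = 0.0403). Osmr, the oncostatin M receptor, rose by 0.98 ± 0.20 (edgeR adjusted p = 0.0146) and fell by 1.08 ± 0.20 (edgeR adjusted p = 0.0262). Ptgs2, which makes prostaglandins, rose by 3.06 ± 0.67 (edgeR adjusted p = 0.0178) and differed by -2.20 ± 0.64 with 6F2 (edgeR adjusted p = 0.0676). Il6, not tested for its low counts, had 0.248, 3.42, 5.67 and 1.81 CPM in arthritic control mice, against at most 0.433 CPM elsewhere. Il17a had 2 counts in KBxN + aGP120 2 and 0 in the other libraries. The increases of Il1b and Osmr held with any mouse left out, that of Il1r1 was lost without Naive + aGP120 4 (edgeR adjusted p = 0.0584) and that of Ptgs2 without Naive + aGP120 2 or 4 or KBxN + aGP120 3 (edgeR adjusted p = 0.0541 to 0.0644). The decreases of Osmr, Il1b and Il1r1 were kept in 6, 3 and 1 of 12 fits, and each was lost without KBxN + aGP120 2, 3 or 4 (edgeR adjusted p = 0.0508 to 0.121 over all fits that lost a call).

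Other partners of RANKL and osteoprotegerin, and the proteases that shed RANKL, had 1 of 10 higher and 0 lower in arthritic control joints (median 0.23) and 1 lower and 0 higher with 6F2 (median -0.15). In both comparisons the member was Mmp14, a membrane metalloprotease that can shed RANKL. It stood at 67.4, 359, 248 and 191 CPM in arthritic control mice, against 52.6 to 92.3 in naive and 55.0 to 74.1 in treated mice, and rose by 1.503 ± 0.391 (edgeR adjusted p = 0.0364) and fell by 1.74 ± 0.39 (edgeR adjusted p = 0.0423). Its increase was kept only without KBxN + aGP120 1 or KBxN + 6F2 4 and its decrease only without Naive + aGP120 4 or KBxN + aGP120 1 (edgeR adjusted p = 0.0518 to 0.125 in the other fits). Lgr4, a second receptor of RANKL, had 54.3 ± 5.62, 41.6 ± 9.76 and 49.0 ± 3.59 CPM, and Tnfsf10, the gene of TRAIL, which osteoprotegerin also binds, 3.601 ± 1.25, 2.101 ± 0.431 and 3.84 ± 0.695 CPM in naive, arthritic control and treated joints. Their differences of -0.38 ± 0.15 and -0.78 ± 0.29 in arthritic control joints did not pass (edgeR adjusted p = 0.101 and 0.0989).

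Factors that induce osteoprotegerin, with genes of the Wnt pathway, had 1 of 14 higher and 2 lower in arthritic control joints (median -0.24), and 1 higher and 1 lower with 6F2 (median -0.04). Tgfb2, the gene of transforming growth factor beta 2, an inducer of osteoprotegerin in bone cells, stood at 85.0, 97.5, 79.7 and 107 CPM in naive mice. It stood at 57.8, 46.0, 39.8 and 38.3 CPM in arthritic control mice and at 90.9, 84.2, 83.2 and 75.7 CPM in treated mice. All 4 arthritic control mice, mouse 1 included, were below every other mouse. Tgfb2 fell by 1.02 ± 0.14 (edgeR adjusted p = 0.00500), a call kept in 12 of 12 fits with 1 mouse left out, and rose by 0.88 ± 0.14 with 6F2 (edgeR adjusted p = 0.0158), lost without KBxN + aGP120 3 or 4 or KBxN + 6F2 1 or 2 (edgeR adjusted p = 0.0507 to 0.0707). Bmp2 fell by 0.50 ± 0.14 (edgeR adjusted p = 0.0413), in 3 of 12 fits with a mouse left out, those without KBxN + aGP120 1 or KBxN + 6F2 3 or 4. Sfrp1, a secreted Wnt antagonist, rose by 2.61 ± 0.59 (edgeR adjusted p = 0.0261) and fell by 2.59 ± 0.59 (edgeR adjusted p = 0.0472), calls kept in 6 and 2 of 12 fits and lost without KBxN + aGP120 2, 3 or 4, among others.

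**Figure D5:**
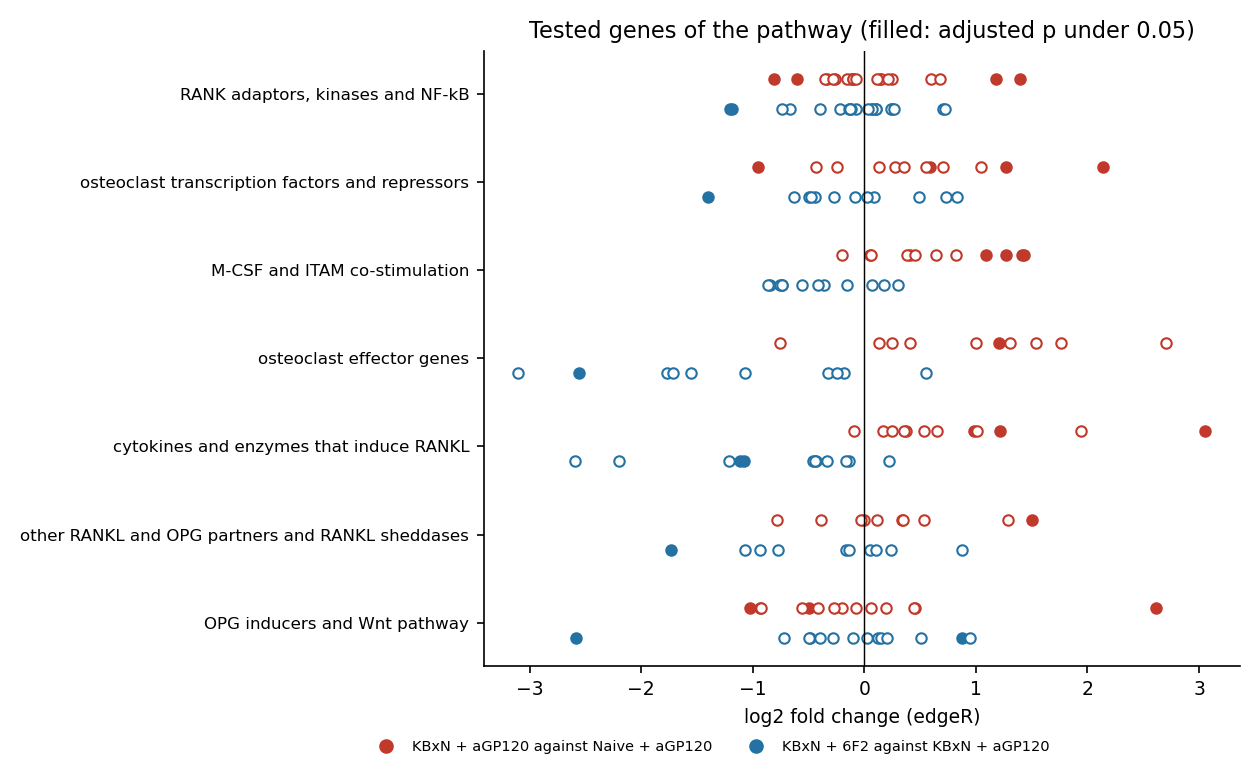
Log2 fold changes of the tested pathway genes in each of the 7 groups for the 2 comparisons that share the arthritic control mice; filled points have an edgeR adjusted p under 0.05. Il1b is left out because its naive libraries held 1 count in all. Of the 10 osteoclast effector genes 9 are above 0 for arthritis and 1 for 6F2, with 1 filled point in each comparison.

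Markers of cells that could carry these RNAs were summed in each mouse. Synovial fibroblast markers, 12 genes, summed to 11510, 36500, 25270 and 27250 CPM in arthritic control mice 1 to 4, against 11380 to 17920 CPM in naive and 13650 to 17990 CPM in treated mice. Of the 12, 4 rose (Pdpn, Lum, Col1a1 and Col1a2) and 1 fell (Clic5) in arthritic control joints, and with 6F2 Clic5 rose and Pdpn fell, by edgeR. Pdpn, podoplanin of activated fibroblasts, stood at 19.4, 59.8, 69.2 and 51.0 CPM in arthritic control mice, against 10.6 to 17.7 in naive and 15.4 to 18.6 in treated mice. In arthritic control mice 2, 3 and 4 most of the summed level came from Col1a1 and Col1a2, the chains of type I collagen, while in the other 9 mice Prg4, the lubricin gene, was the most abundant member. Osteoblast and osteocyte markers summed to 3035, 20020, 12100 and 12630 CPM, almost all from Col1a1, which is in both lists. Of the 9 tested, 5 had a difference above 0 in arthritic control joints, and 2 of these, Col1a1 and Ibsp, rose by edgeR. With 6F2, 1 rose, the osteocyte gene Phex. Alpl, alkaline phosphatase, stood at 25.2, 22.5, 16.4 and 41.6 CPM in arthritic control mice, against 24.3 to 37.9 in naive and 31.9 to 41.95 in treated mice. Ibsp, bone sialoprotein, stood at 55.3, 285, 183 and 220 CPM in arthritic control mice, against 37.6 to 63.1 in naive and 57.3 to 95.4 in treated mice. Phex stood at 1.74 to 3.23 CPM in arthritic control, 1.92 to 4.85 in naive and 5.09 to 11.3 in treated mice. With 1 mouse left out, the members called higher in arthritic control joints numbered 1 to 7 of the fibroblast list and 0 to 4 of the osteoblast list. Mice 2, 3 and 4, high in Tnfsf11, thus also held the highest summed fibroblast and osteoblast markers, the latter through Col1a1. Not all osteoblast markers were raised in them, and the part of these cells in the Tnfsf11 result was not tested.

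Osteoclast markers, 7 genes that include Ctsk and Acp5, summed to 72.7, 503, 244 and 167 CPM in arthritic control mice, against 52.0 to 116 CPM in naive and 59.8 to 76.2 CPM in treated mice. Lymphocyte markers were near the floor in all groups. The 10 T cell markers together summed to 3.93 to 4.45 CPM in naive, 3.23 to 11.03 in arthritic control and 5.55 to 8.34 in treated mice, and Cd3e, a chain of the T cell receptor complex, had at most 1.16 CPM. The 9 B cell markers summed to 0.562 to 3.30, 0.744 to 15.8 and 1.81 to 16.7 CPM. For both lists 0 members passed in any comparison by edgeR, of 4 and 2 that could be tested, and DESeq2 called 1 T cell marker higher with 6F2. Of the arthritic control mice highest in Tnfsf11, mouse 3 (17.1 CPM) had 4.68 CPM of T cell and 2.57 CPM of B cell markers, and mouse 2 (14.3 CPM) had 11.03 and 15.8 CPM, the most of its group. The part of lymphocytes in the Tnfsf11 result was not tested.

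Other tissue components varied as well. Neutrophil markers summed to 12.2, 47.0, 34.1 and 20.9 CPM in arthritic control mice, against 3.23 to 10.04 in naive and 10.1 to 44.3 in treated mice, and 3 of 6 tested rose in arthritic control joints. Skeletal muscle markers summed to 219800, 111800, 127600 and 169600 CPM in arthritic control mice, against 169000 to 298500 in naive and 112500 to 225000 in treated mice. The long noncoding RNA Gm26917 took 2.89%, 8.28%, 6.82% and 4.55% of the counts in arthritic control mice, against 1.63% to 2.39% in naive and 1.68% to 2.52% in treated mice. Mice 2, 3 and 4 of the arthritic control group, with the most Tnfsf11, were thus also the highest in Gm26917, and its part in the result was not tested. Leaving muscle, erythroid, keratinocyte and Gm26917 counts out of the scaling changed no call of the 3 genes. The Tnfsf11 increase was 4.782 either way. This setting changes only the scaling factors and does not correct levels for tissue composition, so it cannot show whether composition has a part.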

How the data were processed

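The deposited values are counts per Ensembl gene, made by the authors from total RNA (RNeasy kit) sequenced after a stranded TruSeq Total RNA preparation, per the labels' protocols. The build was GRCm38 per the submitters' processing notes. Aligner, counter and strand setting are unknown here. The series table was used, which equalled the 12 sample files value by value. Positions and exon lengths came from GENCODE M21 and promoters from RefSeq.

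Genes were kept by filterByExpr, scaled by TMM and tested by edgeR 4.0.16 (R 4.3.3, robust quasi-likelihood F-test, all 12 libraries, Benjamini-Hochberg adjustment over 16674 genes, threshold 0.05). The calling step was tested on simulated data. The members and gene lists were chosen with earlier results of these data known. Named genes were the 3 members, up to 5 called genes per pathway list by p, 8 fixed pathway genes and the 5 genes most like each member. A few genes that this rule names are not reported here. Ocstamp, Car2, Il6, Il17a, Cd3e and the markers Prg4, Pdpn, Lum, Col1a1, Col1a2, Clic5, Ibsp, Alpl and Phex were added after their values were seen. Alternatives were other scalings, filters and fits, DESeq2 1.42.0, limma-voom (limma 3.58.1), a replicate block, left-out mice and other prior counts. Depth was 6893969 to 17597920 counts per library. Figures were drawn with matplotlib 3.10.9.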

Additional observations from a re-analysis of the deposited data

Results flagged for a closer look

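Tnfrsf11a in Naive + aGP120 mouse 1 stood at 10.65 CPM, away from the other 3 naive mice, which lay between 13.49 and 13.64 CPM. Its gap to the nearest mouse was 0.95 of the range of the group, above the critical value of 0.829 for 4 samples. It was the only 1 of 18 groups of values examined, and chance flags about 1 in 20.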

How the results depend on the processing

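The increase of Tnfsf11 in arthritic control joints was 4.31 to 5.48 with 1 mouse left out and passed each time. It missed the threshold with limma-voom (4.21) and without KBxN + aGP120 2 and 4 (4.67). The decrease with 6F2 was -4.02 to -3.17 with 1 mouse left out. It missed the threshold without a filter on low counts (-3.56), with limma-voom (-2.95), in a fit of only the 2 groups (-3.61), without KBxN + aGP120 2 and 4 (-3.52) and without Naive + aGP120 4 and KBxN + 6F2 2 (-3.39). Tnfrsf11a passed against naive with DESeq2 (0.77), and with 1 mouse left out its differences were 0.56 to 1.02 and -0.85 to -0.38. Tnfrsf11b in treated against naive joints was -0.15 to 0.02, above 0 without Naive + aGP120 1 (0.0074), Naive + aGP120 2 (0.0179) or KBxN + 6F2 3 (0.0135). Csf1r in treated against arthritic control joints turned to 0.12 without KBxN + aGP120 2 and 4. The causes of these changes were not tested. Tnfsf11 had too few counts to be tested in the fit of only treated and naive mice.

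With a replicate block the decrease of Tnfsf11 was -3.31 (edgeR adjusted p = 0.0797) and its increase 4.52 (edgeR adjusted p = 0.0268). The labels do not say whether the numbers pair mice. Deviations of same-numbered mice from their group means had r of -0.8 to 0.207. For treated and naive mice the mean r was -0.44 for same numbers and 0.116 for other pairs. These values cannot decide whether mice were paired by number. Genes called in the first and second comparison numbered 1721 and 548, against 2905 and 1871 with DESeq2, 1163 and 345 with limma-voom, 435 and 0 in fits of only the 2 groups, 735 and 78 with the replicate block, 1 and 0 without KBxN + aGP120 2 and 4, and 166 and 0 without Naive + aGP120 4 and KBxN + 6F2 2. By edgeR at an unadjusted p under 0.05 the 3 counts of 0 were 3284, 2247 and 3127 genes. With 1 mouse left out the calls numbered 412 to 4694 and 0 to 3976. Low counts limit Tnfsf11 in naive and treated mice.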
